A study of Mus musculus with 20 samples.

Results

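Mature miRNAs of the miR-297, miR-466, miR-467 and miR-669 families were followed in the ascending aorta of atherosclerotic mice on an Agilent mouse miRNA array. Every name on the array that starts with mmu-miR-297, mmu-miR-466, mmu-miR-467 or mmu-miR-669 was taken, control spots left out, which gave 61 of 1881 mature miRNAs. They are 3 members of the miR-297 family, 23 of miR-466, 12 of miR-467 and 23 of miR-669. The families were chosen by their intensities in the week 6 diet difference and the chow time course, where members had been found changed. Values of those comparisons are therefore a description and support nothing.

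As background, most of these miRNAs are cut from a large rodent cluster of near-identical hairpins that lies in an intron of Sfmbt2, a Polycomb group gene. Sfmbt2 is imprinted and is read from the paternal copy in the early embryo and the trophoblast, and the cluster is known above all from placenta and embryonic stem cells. A hairpin yields a 5p and a 3p strand, of which one is usually kept in the silencing complex and guides it to messenger RNAs through bases 2 to 8, the seed. In these families the 5p strand is often rich in alternating U and G and the 3p strand in alternating A and C, so relatives can differ by few bases. Some members have been studied outside the embryo: miR-466l-3p for its effect on interleukin-10 messenger RNA in macrophages, miR-466h-5p in apoptosis, miR-467 for thrombospondin-1 and miR-669a for MyoD.

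All 20 samples were total RNA, taken with TRIZOL, of the ascending aorta with its lesion from male mice, each on 1 array labelled with Cy3. Every mouse, controls included, was a double knockout labelled Apobtm2Sgy/Ldltm1Her, with altered genes of apolipoprotein B and the LDL receptor. The groups were 2 arrays of mice at week 0 on chow and 3 arrays each of mice kept for 6, 18 or 30 weeks on chow or on a high fat diet. The label field named age holds these weeks, and the animals' own age is not stated in the labels. Nothing in the labels says that replicates came from separate animals, so p-values here speak only of how much these samples scatter, and part of that scatter may be technical. The smooth muscle miRNAs miR-143-3p and miR-145a-5p and the endothelial miR-126a-3p were detected on all 20 arrays, as the tissue label calls for. From the same lists miR-143-5p and miR-126a-5p were detected on 18 arrays and miR-145a-3p on none. Of 7 striated muscle miRNAs, miR-1a-3p, miR-133a-3p and miR-133b-3p were also detected on all 20 and miR-208b-3p on none. Their log2 levels ran from 6.98 to 12.79, from 7.02 to 12.21 and from 7.67 to 12.87 over the arrays for the first 3. In pieces of tissue, fewer cells of a type and less RNA per cell cannot be told apart.

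The members fell into 2 classes by the base content of the stretch under their longest probe. In 29 members, called GU-rich here, G and U made up 58.8% to 100% of that stretch, and 25 of them are named 5p and 4 have no arm in their name. In the other 32, called AC-rich, G and U made up 5.88% to 38.1%, and 26 are named 3p and 6 have no arm. No 3p name fell in the first class and no 5p name in the second. The classes were drawn after the values had been seen. The array probe is DNA complementary to the miRNA, so a GU-rich miRNA has a probe of C and A. The probes of the GU-rich members on which the results turn are shown 5′ to 3′, with alternating runs of at least 6 bases in capitals.
miR-466p-5p: atgtacatgtACACACACA
miR-466a-5p: tatgtacatgtACACACACAt
miR-297c-5p: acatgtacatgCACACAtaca
miR-467e-5p: acatatacatgctcacact
miR-669k-5p: gCACACAactatACACAC
miR-669o-5p: acataaacatgCACACAC
miR-466i-5p: CACACACACACACACA
The AC-rich members are shown the same way, first 4 with a run shorter than 10 bases and then 4 with a longer run, a property to which the values return.
miR-467e-3p: atatagGTGTGTGTatgtata
miR-467a-3p: tgtagGTGTGTGTatgtata
miR-669a-3-3p: atacaTGTGTGTGTatgttatg
miR-669b-3p: atatgttTGTGTGTatgtatatg
miR-669c-3p: tttactTGTGTGTGTGTG
miR-669p-3p: atacGTGTGTGTGTGTatg
miR-467f: tgtagGTGTGTGTGTGT
miR-466q: acgtaTGTGTGTGTGTG
An alternating run of U and G (UGUGUG or GUGUGU in the miRNA) stood under the longest probe of 17 of the 29 GU-rich members, against 2.39% of all 1881 miRNAs. A run of A and C (ACACAC or CACACA) stood under that of 29 of the 32 AC-rich members, against 2.13% of all. Only the strand of the miRNA itself was searched, and shifted copies of a run overlap.

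Mature sequences of 7 members were matched by name in RefSeq (GRCm38.p6). They are shown with the seed in capitals, because the seed decides which messenger RNAs a strand is known to reach.
miR-466j: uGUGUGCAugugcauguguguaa
miR-466k: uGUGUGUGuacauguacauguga
miR-669n: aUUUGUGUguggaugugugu
miR-466i-3p: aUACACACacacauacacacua
miR-466q: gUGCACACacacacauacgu
miR-467f: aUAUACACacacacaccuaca
miR-467g: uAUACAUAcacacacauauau
The 7 have 7 distinct seeds, so no shared seed groups them, and 0 other miRNAs with a sequence in RefSeq and a probe on the array had one of these seeds.

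The array's annotation gives mouse build mm9 positions for 32 members. For 31 of them every position lies on chromosome 2, between bases 10388918 and 10437804. The exception is miR-466i-3p at chr13:17839390-17839407. Both strands of the miR-467e hairpin are placed next to each other, the 5p probe at chr2:10427362-10427379 and the 3p probe at chr2:10427397-10427416. miR-669k-5p is at chr2:10396953-10396969. RefSeq lists 81 genes of these families, of which 71 lie inside the span of Sfmbt2, and all 71 miRNA genes inside that span belong to these families. By their genes, 24 GU-rich and 26 AC-rich members come from within Sfmbt2, 4 and 4 from elsewhere, and 1 and 2 from both. Whether a position is exonic or intronic was not analysed here. The probes of 11 members also carry the name of another miRNA, for example miR-466b-5p and miR-466o-5p on the probes of miR-466p-5p, and such names share 1 measurement.

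Detection on an array required that, for 1 probe or more of a miRNA, the share of usable spots well above background reached 0.5. Of the 61 members, 50 were detected on at least 1 array and 11 on none, among them miR-466k, miR-466l-3p and miR-669g. Only miR-466i-5p, miR-669n and miR-466h-3p were detected on all 20. Between 10 and 45 members were detected per array, while 316 to 742 of all miRNAs were. The members did not simply follow the total. Week 18 high fat replicate 1 had 645 miRNAs detected but 1 of 32 AC-rich members, beside 19 of 29 GU-rich ones. Replicate 1 of week 18 chow and of week 30 high fat, with 316 and 355 miRNAs, had 2 GU-rich members each and 9 and 8 AC-rich ones.

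**Figure D1:**
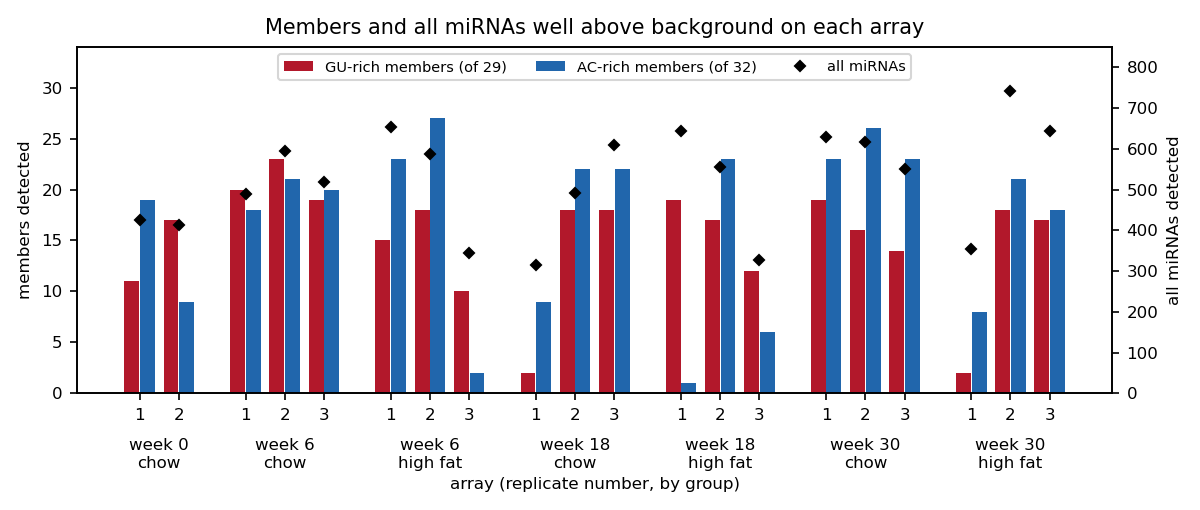
Number of GU-rich (red bars) and AC-rich (blue bars) members detected on each of the 20 arrays, on the left axis, and of all miRNAs detected (black diamonds), on the right axis. On week 18 high fat replicate 1 the AC-rich bar stands at 1 although 645 miRNAs were detected, and on replicate 1 of both week 18 chow and week 30 high fat the GU-rich bar stands at 2.

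Some arrays stand apart, and several results rest on them. Fewest miRNAs were detected on 4 arrays: from the chow diet replicate 1 of week 18, and from the high fat diet replicate 3 of week 6, replicate 3 of week 18 and replicate 1 of week 30. Week 18 high fat replicate 3 was also the noisiest, with a negative control SD of 22.3 against 2.10 to 2.53 on the other arrays. Its lowest detected log2 level was 5.09, the highest of all arrays, so values under that level there are not detected signal. Over 192 miRNAs detected everywhere, the log2 differences between week 6 chow replicates 1 and 2 had an SD of 0.281, those between week 30 high fat replicates 2 and 3 one of 0.180, and those between the high fat arrays replicate 3 of week 18 and replicate 2 of week 30, of different groups, one of 0.195. The median pair of one group on one slide had 0.953, and spot noise was 0.0170 to 0.0432, which does not settle whether the close pairs are separate samples. They were kept as such, with their mean as an alternative. For 8 arrays the slide position in the file header differed from the one in the sample's description. The positions in the descriptions would exchange the diets of replicate 1 on chow and replicate 1 on high fat at week 18.

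Levels are log2 of the spot intensity after each array was scaled to the 75th percentile of the 192 common miRNAs. A floor of 3.10 was set below them, and values at the floor have no order. Levels were compared between arrays for one miRNA at a time, never between miRNAs. The test, limma with Benjamini-Hochberg adjustment over 609 miRNAs that some group had on all of its arrays, took in 42 members, 19 GU-rich and 23 AC-rich. A miRNA that only a single group had on all of its arrays entered through that group, so a higher level there is in part built in. The probes of miR-466i-5p, miR-669n, miR-466h-3p, miR-466m-5p and miR-669l-5p were the brightest by mean signal, which says nothing of the amounts of these RNAs. miR-466i-5p ranged from 9.32 on week 30 chow replicate 3 to 12.18 on week 6 chow replicate 3, with a median of 10.32. miR-669l-5p ranged from 4.23 on week 18 chow replicate 1 to 9.90 on week 6 chow replicate 1, with a median of 7.41.

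GU-rich and AC-rich members moved as 2 separate blocks across the arrays. Each member's level was set against its own mean over the 20 arrays, and the median of these deviations was taken in each class. GU-rich members were highest on the 3 week 6 chow arrays, at 2.53, 2.08 and 1.96 on the log2 scale. They were lowest on replicate 1 of week 18 chow and of week 30 high fat, at -2.46 on both, and next on week 0 chow replicate 1 at -1.92. On the first 2 of these arrays 16 and 14 of the 19 tested were at the floor, so -2.46 is set by the floor and is no measured depth. AC-rich members were highest on week 6 high fat replicate 2 at 2.09 and week 30 chow replicate 2 at 1.96. They were lowest on week 18 high fat replicate 1 at -2.05, week 0 chow replicate 2 at -1.76 and week 6 high fat replicate 3 at -1.73. There 21, 14 and 15 of the 23 tested were at the floor, so these lows are limited by the floor and have no order. The gap between the classes on one array cannot move with the scaling, other than through the floor. It ran from -2.11 on week 0 chow replicate 1 and -1.69 on replicate 1 of both week 18 chow and week 30 high fat to 2.31 on week 6 chow replicate 1. The 2 week 0 arrays, of one group, lay on opposite sides, at -2.11 and 1.46. The gaps of -1.69 and 1.46 rest in part on members at the floor, so their size is not measured.

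**Figure D2:**
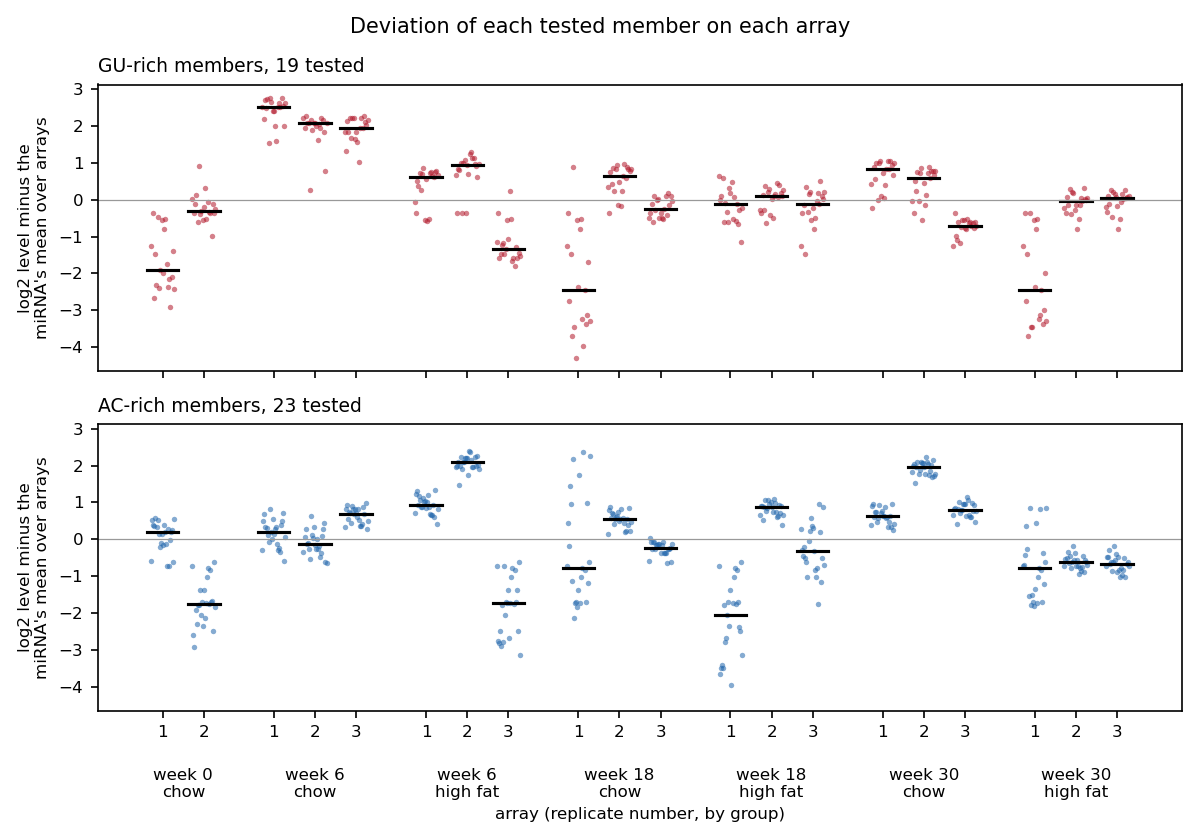
Deviation of each tested member's log2 level from its own mean over the 20 arrays, for 19 GU-rich members (top, red) and 23 AC-rich members (bottom, blue), each point a member and each black bar the median on that array. The GU-rich medians on the 3 week 6 chow arrays lie between 1.96 and 2.53, while the AC-rich medians there lie between -0.13 and 0.70.

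Over the 20 arrays, the median Pearson r between pairs of GU-rich members was 0.85 (171 pairs, from 0.32 to 1.0) and that between pairs of AC-rich members 0.84 (253 pairs, from 0.41 to 1.0). Between the classes the median was 0.31 (437 pairs, from -0.22 to 0.71). With group means removed, the medians were 0.72, 0.83 and 0.27. These values are a description: the points share arrays, scaling, floor, base composition and in part probes. For all 10 hairpins with both strands tested, the r between the 2 strands was below the median r within either class. For miR-466h the r between the 5p and 3p strands was 0.11, for miR-467e 0.14 and for miR-466f 0.19. The highest values were 0.65 for miR-669e, 0.52 for miR-466m and 0.50 for miR-467c, above the median of 0.31 between the classes.

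**Figure D3:**
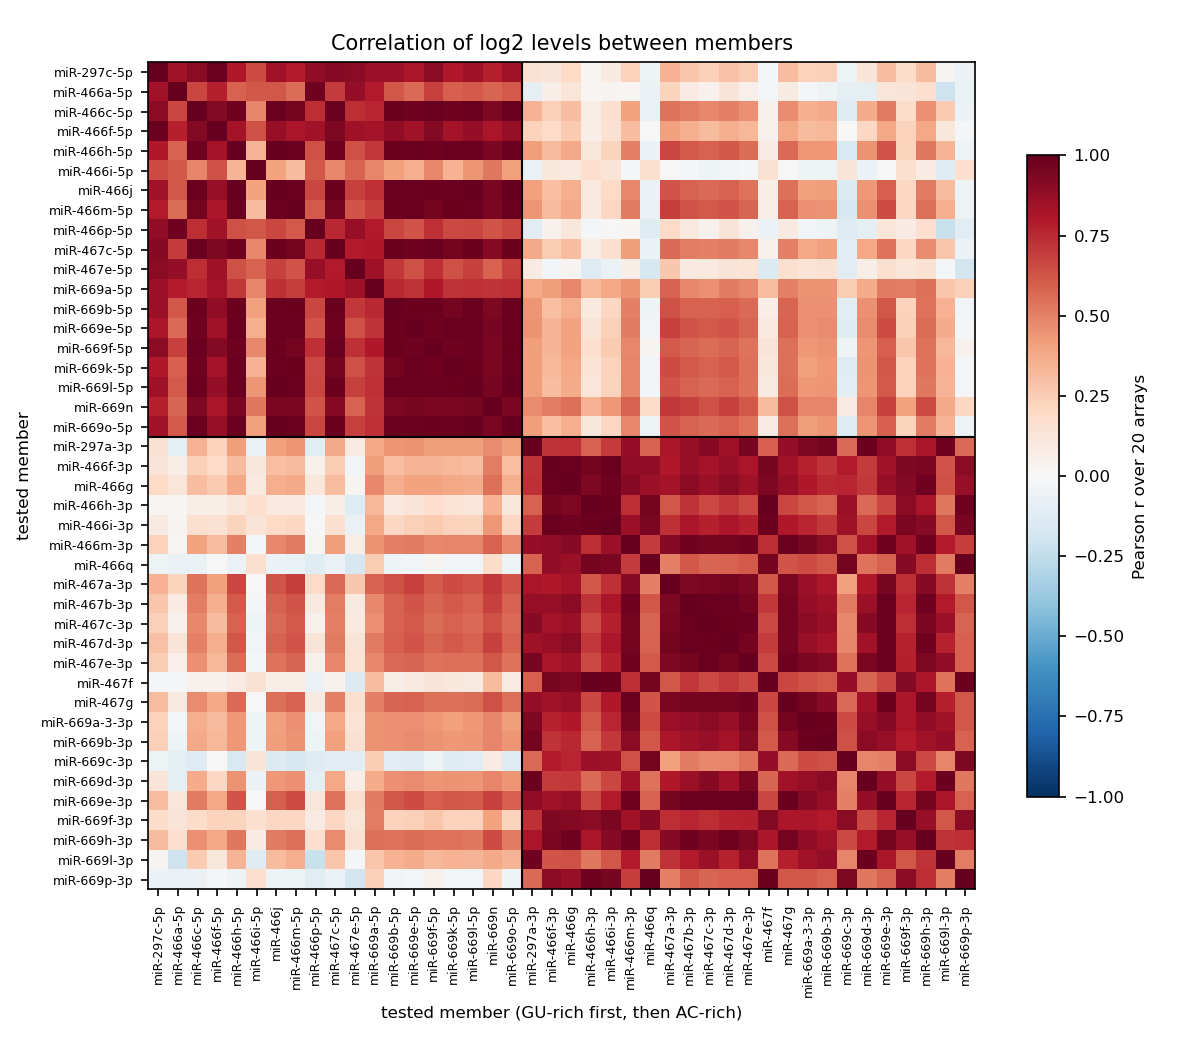
Pearson r over the 20 arrays between the log2 levels of the 42 tested members, GU-rich members first and AC-rich members after the black lines, with the colour scale running from -1 to 1. The 2 diagonal blocks have medians of 0.85 and 0.84 and the block between them 0.31, with miR-466i-5p as a paler row in the GU-rich block.

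Members whose genes RefSeq places outside Sfmbt2 kept to the class of their bases, though some share probe sequence with members of the cluster. The median r of miR-466j with the 15 GU-rich members of the cluster was 0.99, and with its 17 AC-rich members 0.43. Its longest probe differs only in the first base from that of miR-466m-5p, whose gene lies within Sfmbt2. For miR-669n the median r was 0.93 with the GU-rich and 0.55 with the AC-rich members of the cluster. Its probes also carry the name miR-669c-5p. They are placed at chr2:10430951-10430967, next to miR-669c-3p, whose gene lies within Sfmbt2. Its values are therefore no example from outside the cluster. Among AC-rich members from elsewhere, the median r with the AC-rich members of the cluster was 0.94 for miR-467g, 0.81 for miR-466i-3p, 0.70 for miR-467f and 0.62 for miR-466q. The lowest was that of miR-466i-5p with the GU-rich members, 0.48. The longest probe of miR-466i-3p holds the whole longest probe of miR-466f-3p, which has genes both within and outside Sfmbt2. Among the miRNAs that are no members, 19 tested ones had an alternating U and G run under their longest probe, and the median of their deviations was 2.03, 1.60 and 1.82 on the week 6 chow arrays and -1.31 on replicate 1 of both week 18 chow and week 30 high fat. Over the 20 arrays r with the GU-rich median was 0.98 for miR-468-3p, 0.96 for miR-672-5p and let-7k and 0.72 for miR-574-5p, but -0.35 for let-7b-5p and -0.47 for miR-7226-5p. Most miRNAs outside the families with the same repeat thus had the array profile of the GU-rich members. Whether related RNAs bind one another's probes was not tested.

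The length of the uninterrupted alternating run split the members further on one array. On week 18 chow replicate 1, all 8 AC-rich members with a run of 10 to 12 bases lay above their own mean, with a median deviation of 1.60 and a range from 0.45 to 2.36. All 15 AC-rich members with a run of 6 to 9 bases lay below it, with a median of -1.18 and a range from -2.14 to -0.17. Of these 9 were at the floor. Among the GU-rich members, the 18 with a run under 10 bases were all below their mean there, with a median of -2.60 and 16 at the floor. miR-466i-5p, with a run of 16 bases, was 0.88 above. Thus miR-669c-3p stood at 7.22 on that array and at 3.10 to 6.82 on the other 19, and miR-467e-3p stood at the floor. Week 30 high fat replicate 1 showed the same order less completely, with 5 of the 8 long-run and 0 of the 15 short-run AC-rich members above their mean, at medians of 0.40 and -1.35. On week 18 high fat replicate 1 all 8 long-run and all 15 short-run AC-rich members lay below their mean, at medians of -3.28 and -1.72. There 7 of the 8 and 14 of the 15 were at the floor, so the 2 sets have no measured order on that array. The split by run length was drawn after the values were seen, and a change of scaling would move both sets alike, other than at the floor.

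At week 6, GU-rich members were lower on high fat than on chow, and AC-rich members showed no common direction. All 19 tested GU-rich members had lower means on high fat, with a median log2 difference of -2.17 and a range from -2.54 to -1.36. Of the 23 AC-rich members 13 had higher and 10 lower means, with a median of 0.02, and over all 609 miRNAs the median was -0.12. Of the GU-rich members 3 passed the test, all lower, beside 2.79% of all miRNAs tested, and 16 had groups that did not overlap, beside 13.5% of all that were lower without overlap. These counts describe the contrast by which the families were chosen, and nothing is read from them.

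miR-466p-5p was at 6.07, 5.73 and 5.31 on the chow arrays of week 6 and at 3.10, 3.29 and 3.10 on the high fat arrays. The groups were far apart, and no high fat array had it well above background. The difference was -2.54 (SE 0.371, limma adjusted p = 3.73e-04), and the chow mean was at least 5.24-fold higher than the limit of detection of the high fat arrays. After normexp background correction the difference was -0.41 and without scaling -2.12 (limma adjusted p = 1.0 and 0.195), and neither was past the threshold. For such a bound the undetected group is given, array by array, its lowest detected signal or the miRNA's own signal, whichever is larger.

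miR-466a-5p stood at 5.63, 5.39 and 4.77 on chow and at the floor on all 3 high fat arrays. It again separated the groups completely, with a difference of -2.17 (SE 0.323, limma adjusted p = 3.82e-04), at least 4.05-fold lower on high fat. It was -0.28 after normexp correction and -1.75 without scaling, and neither these nor the fit of the 2 groups alone passed the threshold (limma adjusted p = 1.0, 0.278 and 0.0703). Its spread of 0 at the floor makes its SE too small.

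miR-467e-5p was at 5.89, 5.90 and 5.47 on chow and at 3.31, 4.60 and 4.13 on high fat, without overlap. The difference was -1.74 (SE 0.451, limma adjusted p = 0.0423, and 0.0254 to 1.0 over 19 alternatives, of which 4 kept it past the threshold). Its partner from the same hairpin, miR-467e-3p, was at 4.62, 4.32 and 5.19 on chow and at 5.33, 6.68 and 3.10 on high fat, where the groups overlapped. miR-297c-5p, at 6.88, 6.58 and 6.19 against 4.29, 5.03 and 3.22, missed the threshold (difference -2.37, SE 0.630, limma adjusted p = 0.0503). miR-466p-5p, miR-466a-5p, miR-467e-5p and miR-297c-5p entered the test only through week 6 chow, so part of their separation follows from the filter.

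Without week 6 high fat replicate 2 the count of members past the threshold rose from 3 to 5, and in a fit of the 2 groups alone it was 1. After normexp correction it was also 3, but these were other members, and none of the 3 named above kept its call. With no scaling between arrays it was 0, and the GU-rich median was then -1.84 and the AC-rich median 0.62. Without week 6 high fat replicate 3 these medians were -1.47 and 1.29. Of the 4 lymphocyte markers 3 were called lower on high fat, and the median of the list was -2.87. The fourth, miR-150-5p, did not move with them. It was at 8.46, 8.52 and 7.97 on chow and at 7.05, 9.33 and 10.59 on high fat. The summed log2 level of the 4 was 10.97 to 11.61 on the week 6 chow arrays and 7.98 to 10.96 on the high fat arrays, and 0 of the 4 were undetected throughout. The part of these cells in the result was not tested.

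**Figure D4:**
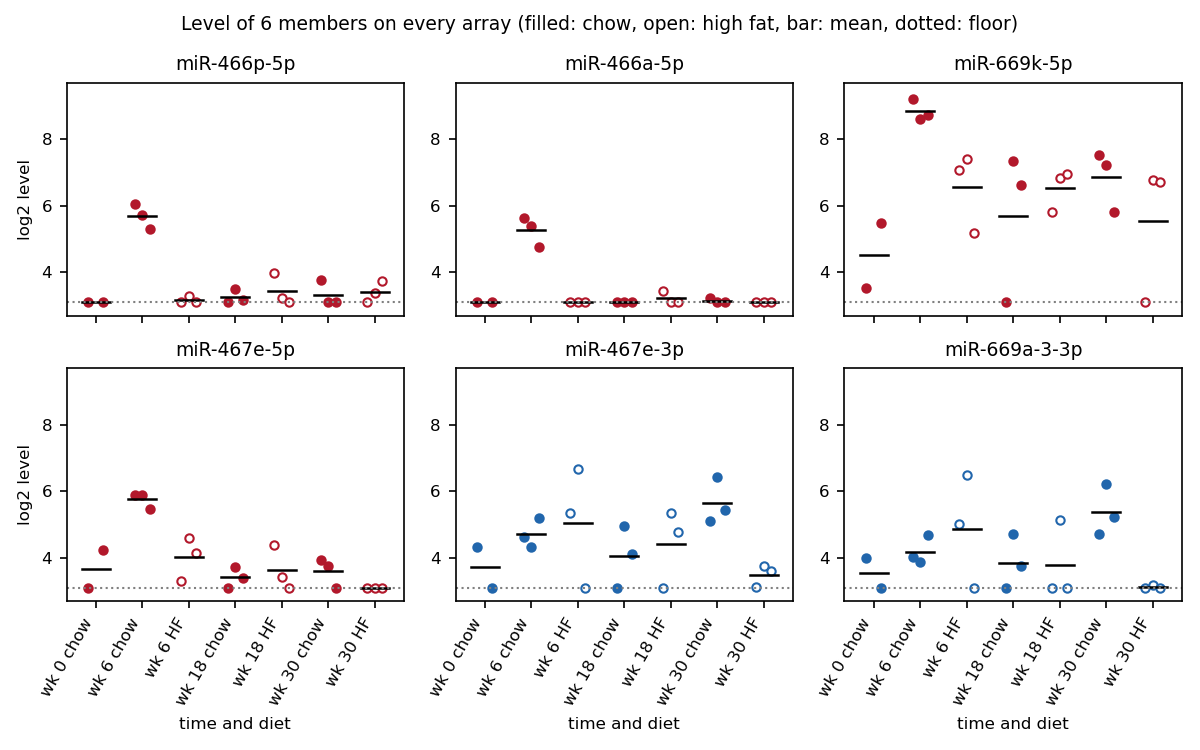
Log2 level of 4 GU-rich (red) and 2 AC-rich (blue) members on every array by time and diet, with chow filled, high fat open, the group mean as a bar and the floor of 3.10 dotted. miR-466p-5p and miR-466a-5p rise off the floor only in the week 6 chow group by more than 1, and the AC-rich strand of miR-467e does not share the peak of its GU-rich strand.

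On chow, GU-rich members rose from week 0 to week 6 and fell again by week 18. At week 6 all 19 were higher than at week 0, with a median log2 difference of 3.22 and a range from 0.94 to 4.35, beside a median of 0.62 over all 609 miRNAs. Of them 16 passed the test, all higher, beside 21.7% of all miRNAs, and 18 had groups that did not overlap, beside 51.6% of all that were higher without overlap. No AC-rich member passed it, with 23 of 23 differences above 0, a median of 1.08 and a smallest limma adjusted p of 0.355. The AC-rich median was -0.19 when arrays were scaled over all miRNAs, and the GU-rich median was then 1.78.

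miR-669k-5p had the largest difference in this step. It was at 3.54 and 5.49 on the week 0 arrays and at 9.22, 8.63 and 8.73 at week 6. The groups lay apart, by 4.35 (SE 1.18, limma adjusted p = 0.0238). miR-466h-5p, studied in apoptosis, was at 4.48 and 6.19 at week 0 and at 9.51, 8.87 and 9.01 at week 6, a difference of 3.80 (SE 1.22, limma adjusted p = 0.0349).

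The next members by size among those past the threshold were miR-466j at 3.78, miR-466c-5p at 3.77, miR-669o-5p at 3.63, miR-669e-5p at 3.62, miR-669f-5p at 3.49, miR-669l-5p at 3.28, miR-467c-5p at 3.22 and miR-466f-5p at 2.82. Of the members past the threshold, miR-466p-5p, miR-466a-5p and miR-669a-5p were undetected at week 0. Against the limit of detection there, miR-466p-5p was at least 6.08-fold higher at week 6, miR-466a-5p at least 4.50-fold and miR-669a-5p at least 3.88-fold. None of these 3 was called after normexp correction. All 3 entered the test only through week 6 chow, so part of their rise follows from the filter.

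From week 6 to week 18 on chow all 19 GU-rich members had lower means, with a median of -2.98 and a range from -3.37 to -0.88, beside -0.16 over all miRNAs. Of them 14 passed the test, all lower, beside 15.9% of all miRNAs, and 17 had groups that did not overlap, beside 33.3% of all that were lower without overlap. No AC-rich member passed it (median -0.33, smallest limma adjusted p = 0.320), with a median below 0 for the 15 short runs, -0.65, and above 0 for the 8 long runs, 0.42. At week 18 the 2 sets parted on chow replicate 1, where 9 short-run members were at the floor. Their median deviations were alike on the other arrays, 0.51 for long and 0.57 for short runs on replicate 2 and -0.21 and -0.23 on replicate 3. miR-669k-5p was at 3.10, 7.36 and 6.63 at week 18, all below its week 6 values, a difference of -3.17 (SE 1.05, limma adjusted p = 0.0488). miR-466j fell by 3.27 on the log2 scale, with values of 3.10, 7.39 and 6.54 at week 18 against 9.33, 8.73 and 8.78. Of the others with large differences, the value was -3.12 for miR-669b-5p, -3.11 for miR-669o-5p, -3.08 for miR-466c-5p, -3.0 for miR-669f-5p, -2.98 for miR-669l-5p, -2.87 for miR-467c-5p, -2.69 for miR-466f-5p and -2.66 for miR-297c-5p. miR-467e-5p, not well above background on any week 18 chow array, was at least 4.13-fold lower, a call that normexp correction ended.

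The 2 chow steps and the week 6 diet difference share the 3 week 6 chow arrays, and single arrays carried many of the calls. All week 6 arrays were on one slide and all week 18 arrays on others, so in the second step week and slide cannot be told apart. With near-identical arrays averaged, the calls became 2 in the first step and 3 in the second. In the first step the 16 calls became 2 without week 0 chow replicate 1, 6 without the other week 0 array, 2 without either of replicates 1 and 2 of week 6, and 10 without replicate 3. In the second step the 14 became 3, 4 and 8 without week 6 chow replicate 1, 2 and 3, 3 and 9 without week 18 chow replicate 1 and 3, and 18 without replicate 2. Over these fits the GU-rich median stayed between 2.32 and 4.12 in the first step and between -3.67 and -1.98 in the second. Some blood cell markers moved the same way and others did not. Of the 4 lymphocyte markers 3 rose at week 6 (median 3.11) and 3 fell by week 18 (median -3.54), their summed level being 8.41 to 10.40 at week 0 and 7.83 to 9.20 at week 18. The fourth, miR-150-5p, was at 7.23 and 10.06 at week 0 and at 8.46, 8.52 and 7.97 at week 6. Of the 3 tested myeloid markers none was called in the first step (median 2.85), where miR-223-3p went from 8.56 and 8.42 to 8.15, 8.36 and 7.92. By week 18 2 of them fell (median -3.93), from a summed level of 11.40 to 11.96 at week 6 to one of 7.57 to 9.59. miR-223-5p, the fourth of that list, was detected on no array. The 4 red cell markers had medians of 0.43 and -1.47 in the 2 steps, with no call. Other lists moved too. The 7 epithelial miRNAs had medians of 3.12 (1 higher) and -1.59 (none called) in the 2 steps, with a summed level of 7.28 to 7.47 at week 0, 9.47 to 11.14 at week 6 and 6.05 to 11.49 at week 18. The 3 tested miRNAs of embryonic stem cells had medians of 3.31 (1 higher) and -1.05 (1 lower), with a summed level of 7.19 to 7.24, then 8.66 to 8.90, then 7.43 to 8.25. Both of these calls were those of miR-294-3p, which has a U and G run and an r of 0.94 with the GU-rich median. The part of these cells in the members' change was not tested.

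Over the 3 weeks, limma's moderated F test of the diet effect passed the threshold for miR-466p-5p and miR-466a-5p, beside 0.985% of all miRNAs. It rests on the week 6 difference by which the families were chosen, so these values too are a description. For miR-466p-5p the high fat minus chow difference was -2.54 at week 6, 0.18 at week 18 and 0.09 at week 30 (limma adjusted p = 0.0126). For miR-466a-5p it was -2.17, 0.11 and -0.04 (limma adjusted p = 0.0130). Outside week 6 chow, miR-466p-5p never passed 3.98 and miR-466a-5p never passed 3.44, so the change rests on those 3 arrays. Both entered the test only through those arrays. Neither was called without replicate 1, nor without replicate 2, of week 6 chow.

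At week 18 no member differed between the diets, beside 0% of all miRNAs. At an unadjusted p under 0.05 there were 0 of the members and 7 of all 609 miRNAs in limma. The GU-rich median was 0.73, but it was -0.30 without week 18 chow replicate 1, -1.09 with the diets of 2 arrays exchanged as the positions in the descriptions would have it, and -0.43 after normexp background correction. The members with the smallest p, miR-669c-3p, miR-669p-3p and miR-467f, are AC-rich with long runs. miR-467f was at 8.79, 7.60 and 6.90 on chow and at 3.10, 7.78 and 6.74 on high fat. The groups overlapped, the highest and the lowest value being those of replicate 1 on each diet, and the difference was -1.89 (SE 1.11, limma adjusted p = 0.952). All 8 long-run AC-rich members had lower means on high fat, at a median of -1.66, and the 15 short-run ones a median of 0.08. On replicate 1 of chow and of high fat, 9 and 14 of the 15 short-run members were at the floor.

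At week 30 AC-rich members had the lower means on high fat, without passing the test. No member was called, beside 0% of all miRNAs, although 13 members, all AC-rich, and 102 of all 609 miRNAs had an unadjusted p under 0.05 in limma. All 23 AC-rich members had lower means on high fat, with a median of -1.81 and a range from -2.51 to -0.94, and 17 of 19 GU-rich ones did, with a median of -1.04. The median over all miRNAs was -0.14. Of the AC-rich members 20 had groups that did not overlap, beside 25.6% of all miRNAs that were lower without overlap. Among these members, miR-297a-3p, miR-669a-3-3p, miR-669b-3p, miR-669d-3p and miR-669l-3p entered the test only through week 30 chow, the higher group. Part of the AC-rich counts therefore follows from the filter. Without week 30 high fat replicate 1 the GU-rich median was -0.22 and the AC-rich one -1.78.

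miR-669a-3-3p was at 4.72, 6.23 and 5.21 on week 30 chow and at 3.10, 3.19 and 3.10 on high fat. Every chow array was above every high fat array, and the difference was -2.26 (SE 0.733, limma adjusted p = 0.185). miR-669b-3p was at 4.47, 5.92 and 4.53 on chow and at the floor on high fat, a difference of -1.88 (SE 0.629, limma adjusted p = 0.185), at least 3.68-fold lower. miR-297a-3p was at 4.23, 5.66 and 4.48 against the floor on all 3 arrays (difference -1.69, SE 0.580, limma adjusted p = 0.185). All 3 members entered the test only through week 30 chow, the higher group here, so part of their separation follows from the filter.

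In a fit of these 2 groups alone, 16 members passed the threshold, all lower and AC-rich, beside 88 higher and 29 lower of all miRNAs. High fat replicates 2 and 3 of this week are a near-identical pair. The 2 diets lay on different slides at week 30, and with slide as a fixed block the AC-rich median was -2.44, with no member called. That estimate rests on week 18 high fat replicate 3, the only array of another group on the slide of week 30 high fat. After normexp correction the AC-rich median was -0.17. Some lists of other cell types also had lower medians on high fat at week 30, with no call: -1.83 for 3 myeloid and -1.77 for 7 epithelial miRNAs, whose summed levels were 8.57 to 8.95 and 7.14 to 10.78 on chow and 7.03 to 7.86 and 6.37 to 6.51 on high fat. The 2 endothelial miRNAs had a median of -1.26. The part of such cells in the result was not tested.

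The steps on high fat called no member. From week 0 to week 6 the median was 1.14 for GU-rich and 1.32 for AC-rich members, and 0 of the members and 46 of all 609 miRNAs had an unadjusted p under 0.05 in limma. The smallest p-values were those of miR-669b-3p, miR-297a-3p and miR-669d-3p, all with a limma adjusted p of 0.520. Without the 4 arrays with the fewest detected miRNAs, 16 members passed the threshold in this step, 9 GU-rich and 7 AC-rich, all higher, and the medians were 1.92 and 2.26. The count is given without the share of all miRNAs called in that fit, so nothing about the members is read from it. Leaving out week 6 high fat replicate 3 alone gave the same medians and called no member.

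From week 6 to week 18 on high fat, a step in which week and slide again cannot be told apart, the medians were -0.06 for GU-rich and -1.0 for AC-rich members, and from week 18 to week 30 they were -0.88 and -0.39. Without week 18 high fat replicate 1 the first pair became 0.01 and 0.03, and without week 30 high fat replicate 1 the second became 0.06 and -0.02. Unadjusted p-values under 0.05 numbered 0 among the members in both steps, and 62 and 19 of all miRNAs in limma. miR-669f-3p had the smallest p of the first step (difference -1.35, SE 0.794, limma adjusted p = 0.517) and miR-669d-3p that of the second (difference -1.06, SE 0.622, limma adjusted p = 0.811). On week 18 high fat replicate 3 miR-669d-3p was not detected, and its value of 4.87 lay under the lowest detected level of that array, 5.09. On chow from week 18 to week 30, no member was called, while 3 members, which were all 3 of the miRNAs so found among 609, had an unadjusted p under 0.05. They were miR-297a-3p, miR-669d-3p and miR-669b-3p, with limma adjusted p of 0.991 each. All 3 entered the test only through week 30 chow, the higher group here, so part of their difference follows from the filter. AC-rich members had a median of 1.36 in that step, and 15 of 23 had groups that did not overlap, beside 3.12% of all miRNAs that were higher without overlap. The AC-rich miR-669a-3-3p and miR-669l-3p also entered only through week 30 chow, so part of the count of 15 follows from the filter too. GU-rich members had a median of 0.89, which was -0.03 without week 18 chow replicate 1. After normexp correction the medians were -0.10 and -0.28.

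**Figure D5:**
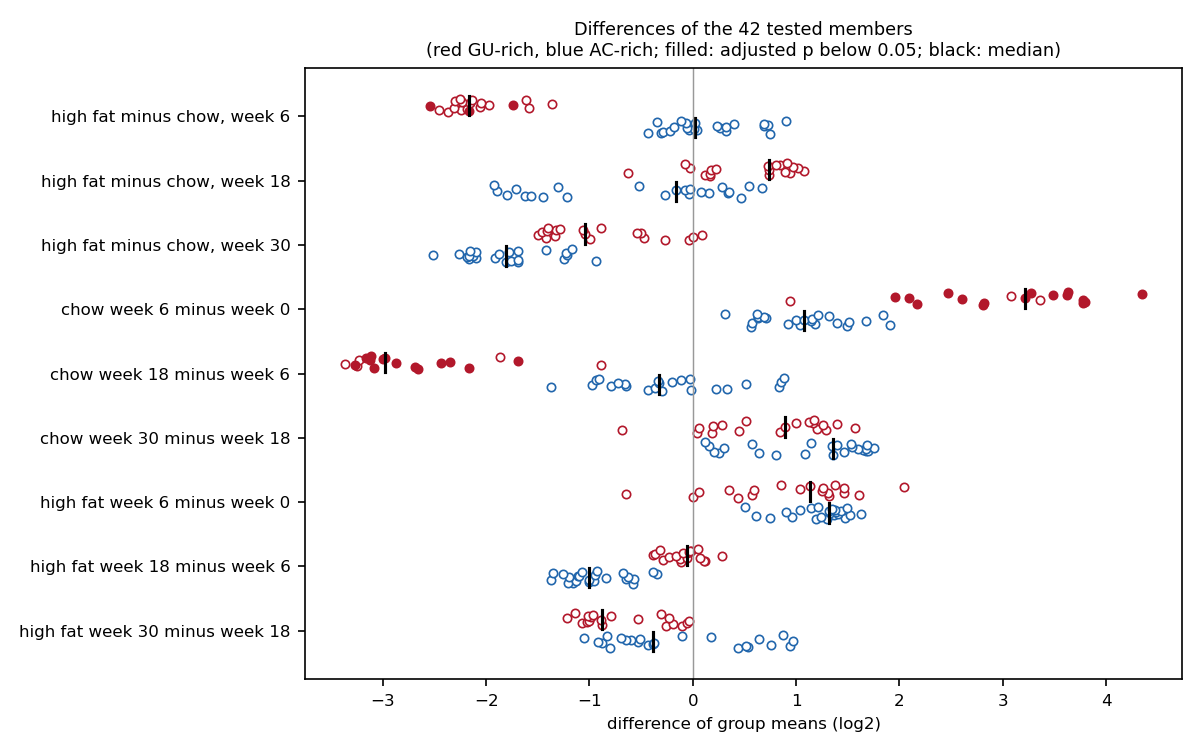
Differences of group means on the log2 scale for the 42 tested members in 9 comparisons, GU-rich members in red and AC-rich members in blue, filled where the limma adjusted p is below 0.05, with black bars for class medians. Filled points occur only among GU-rich members, 3 in the week 6 diet comparison, 16 in the chow step from week 0 to week 6 and 14 in that from week 6 to week 18.

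Of the other lists, the smooth muscle miRNAs showed no call in the week 6 diet difference or the chow steps, at medians of 0.17, -0.62 and 0.45. Endothelial miRNAs had medians of 0.35, -0.58 and -0.16 there, also with no call. The 4 tested striated muscle miRNAs had medians of 1.48, 1.01 and 0.06, with 1 called higher in the first chow step. That was miR-206-3p, which has a U and G run and an r of 0.77 with the GU-rich median. Of 14 miRNAs of the embryonic stem cell clusters, the cells in which the Sfmbt2 cluster is best known, 8 were detected on no array, among them miR-302a-3p, miR-302b-3p, miR-302d-3p, miR-367-3p, miR-293-3p and miR-295-3p. The 3 tested ones included miR-294-3p, which has a U and G run and an r of 0.94 with the GU-rich median, and their median in the week 6 diet difference was -1.38, with no call. Of 25 miRNAs of the other large imprinted cluster, Dlk1-Dio3, 13 were tested, and their medians in these 3 comparisons were 0.60, -0.43 and 0.11, with 1 lower, 3 higher and 1 lower. Both lower calls were those of miR-539-5p, which was also among the 3 higher. It has a U and G run and an r of 0.89 with the GU-rich median.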

How the data were processed

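Each array is 1 deposited scanner file, whose processed spot intensity the authors made with the Agilent scanner software (Feature Extraction, version 11.5.1 in the submitters' processing notes), with background subtracted and no scaling between arrays, per the file headers. The series' deposited value table held the same intensity for 20 of 20 arrays. Control and outlier spots were left out. A miRNA's value is the mean of its probes, each the mean of its spots. Arrays were scaled to the 75th percentile over 192 miRNAs detected on all, floored and log2 transformed. limma 3.58.1 (R 4.3.3) was fitted to 7 groups on 609 miRNAs, 2-sided, with Benjamini-Hochberg adjustment at 0.05, and was tested on simulated data. The number of arrays limits the precision. The members and lists were chosen with earlier results of these data known. Named members are the 10 largest differences past the threshold per comparison, otherwise the 3 smallest p, the 5 highest means and the ends of the detection range. Alternatives covered background correction, scaling, floor, filters, slide and replicate blocks, near-identical arrays and leaving out arrays.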

Additional observations from a re-analysis of the deposited data

Results flagged for a closer look

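For miR-466p-5p the diet effect differed between the weeks in limma's F test (adjusted p = 0.0126), with differences of -2.54, 0.18 and 0.09 at weeks 6, 18 and 30. For miR-466a-5p the adjusted p in limma was 0.0130, with differences of -2.17, 0.11 and -0.04. Both values rest on the week 6 chow arrays and on the contrast by which the families were chosen, so they are a description and no independent evidence. Of 31 alternatives 8 ended each call, among them normexp background correction, 3 other scalings and the averaging of near-identical arrays. Both miRNAs are dim and lay at or near the floor outside the week 6 chow arrays.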

How the results depend on the processing

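No member was called in any fit of the week 18 diet effect, the chow step from week 18 to 30 or the high fat steps after week 6. The week 6 diet count of 3 became 0 without scaling, 0 with only the miRNAs detected on all arrays and 1 in the 2 groups alone, and 2 to 5 with 1 array left out. After normexp it stayed 3, but the 3 members named lost their calls and others took their place. The week 30 count of 0 became 16 in the 2 groups alone. The 16 calls of the chow step to week 6 became 2 with scaling over all miRNAs, 2 after quantile normalization, 0 without scaling, 0 with only the miRNAs detected on all arrays, 6 without a filter, 2 with near-identical arrays averaged, and 2 to 10 with 1 array left out. The 14 of the step to week 18 became 9 after normexp, 2 with scaling over all miRNAs, 2 after quantile normalization, 0 without scaling, 0 with only the miRNAs detected on all arrays, 9 without a filter, 3 with near-identical arrays averaged, 8 in the 2 groups alone, 5 with the 2 diets exchanged, and 3 to 18 with 1 array left out. The high fat step to week 6 rose from 0 to 16 without the 4 arrays with the fewest detected miRNAs, a count given without the share of all miRNAs in that fit. The diet over time count of 2 became 0 after normexp, 0 with scaling over all miRNAs, 0 after quantile normalization, 0 without scaling, 1 with a lower floor, 0 with only the miRNAs detected on all arrays, 1 with slide as a fixed block, 0 with near-identical arrays averaged, and 0 to 2 with 1 array left out. Only 3 members and 192 miRNAs remained in the fits on miRNAs detected on all arrays; the other causes were not tested. With the replicate number as a block, the counts were 4 for the week 6 diet effect, 17 and 17 for the chow steps and 2 over time, and no count moved by over 1.5 times. Same-numbered arrays had a median correlation of 0.0190 (57 pairs), so the numbers did not pair the samples. Dim members near the floor are bounds at best, and an SE at the floor is too small.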
